A study of Arabidopsis thaliana with 6 samples.

Results

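The 3 genes described here encode enzymes that break down the amino acids lysine, ornithine and methionine in Arabidopsis thaliana: AT4G33150, DELTA-OAT (locus AT5G46180) and MGL (AT1G64660). They were chosen by gene symbol in the platform annotation, and each was measured by 1 probe set that names 1 gene, so they are 3 of the 13350 genes that such probe sets name, and 3 of the 17695 probe sets tested. The genes were put forward because of their values in the comparison reported below, so those values are a description and not a test. RNA came from whole seedlings that had been chilled as seeds for 4 days, lit for 1 hour to start germination and then kept at 21 °C in darkness for 4 days. Wild type (Col-0) was compared with pif1-2, a mutant of PIF1 carrying the insertion Salk_072677, on 3 arrays each, and no other treatment was given to either. The groups follow the sample titles, since the genotype notes of the 6 samples each name a different allele, pif1-2 up to pif1-7. PIF1 belongs to the phytochrome-interacting basic helix-loop-helix factors and acts in the dark. The labels state that the mutant holds little PIF1 mRNA and that its etiolated seedlings are about 2 mm shorter. It is a single insertion line. The question is which transcripts differ when PIF1 is lacking in seedlings kept from light.

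A seedling in darkness cannot fix carbon and lives on the oil and protein stored in the seed. Amino acids freed from that protein are used to build new protein or are broken down for energy and nitrogen, and many of the breakdown enzymes are known to be induced when sugar is short. AT4G33150 encodes lysine-ketoglutarate reductase/saccharopine dehydrogenase (LKR/SDH), a bifunctional enzyme that joins lysine to 2-oxoglutarate to form saccharopine and then splits saccharopine into glutamate and aminoadipate semialdehyde. DELTA-OAT encodes ornithine aminotransferase, a mitochondrial enzyme that turns ornithine, the product of arginase, into pyrroline-carboxylate and glutamate. MGL encodes methionine gamma-lyase, which cleaves methionine into methanethiol, ammonia and 2-oxobutyrate, a precursor of isoleucine.

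Signals are MAS5 values, linear and in arbitrary units, after each array was scaled to the same trimmed mean, and a probe set was tested if its mean over the 6 arrays was at least 50. All 3 genes were far above that limit on every array. The deposited median signal was between 184 and 199 on the 6 arrays. One array, pif1-2 replicate 3, was separate from the rest on the first principal component (47.9 against -13.2 to -5.23) and had an actin 3-prime to 5-prime ratio of 8.07 against 3.53 to 5.17. Another, pif1-2 replicate 2, was separate on the third component, at 42.6 against -17.8 to -1.97. The second component set the replicate 1 arrays (22.4 in wild type, 27.4 in pif1-2) against the other 4, at -30.9 to -0.875. PIF1 itself could not be checked by name, because no named probe set belonged to its locus, AT2G20180, or to At2g20810, the locus that the series title prints beside the allele. Of the markers of an etiolated seedling, PORB, a protochlorophyllide oxidoreductase, had signals from 8379 to 10714 in wild type and from 4898 to 9171 in pif1-2 (log2 fold change -0.48, SE 0.20). ICL, the isocitrate lyase of oil breakdown, had 6683 to 12603 and 11186 to 12502 (0.42, SE 0.19). Neither passed with limma (adjusted p = 0.637 and 0.660), both had overlapping groups, and their part in the values of the 3 enzymes was not tested. The root hair markers EXPA7, EXPA18 and AT1G30870 had signals from 51.7 to 447, and the markers fixed for light-grown leaf and for seed had no named probe set and were not analysed here.

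AT4G33150 (LKR/SDH, probe set 253373_at) had signals of 3358, 2448 and 2558 on the wild-type arrays of replicates 1, 2 and 3. On the pif1-2 arrays it had 4013, 4648 and 5405. All 3 pif1-2 arrays thus lay above all 3 wild-type arrays, and the groups did not overlap. The wild-type mean was 2788 ± 497 (SD, n = 3) and the pif1-2 mean 4689 ± 697, a ratio of 1.68. On the scale of log2(signal + 16) the fold change, pif1-2 minus wild type, was 0.75 (SE 0.16). Across the 9 possible pairs of 1 mutant and 1 wild-type array the ratio ran from 1.19 to 2.21, so even the closest pair differed in the same direction. In RNA from whole seedlings, a change in the share of cells that express a gene and a change in RNA per cell cannot be told apart.

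DELTA-OAT (probe set 248879_at) had signals of 952, 688 and 641 in wild type. In pif1-2 it had 1349, 814 and 1023. The groups overlapped, because the signal on wild type replicate 1 was above that on pif1-2 replicate 2, whereas the other 8 of the 9 pairs had the mutant array higher. The means were 761 ± 168 (SD, n = 3) and 1062 ± 269.8, a ratio of 1.40 and a log2 fold change of 0.46 (SE 0.20). The spread was the widest of the 3 genes within pif1-2, where the SD was 25.4% of the mean, against 14.9% for AT4G33150 and 17.2% for MGL.

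MGL (probe set 261957_at) had signals of 5819.8, 3775 and 2950.3 in wild type. In pif1-2 it had 5155, 5404 and 7009.5. The groups overlapped here too: wild type replicate 1 lay above pif1-2 replicates 1 and 2, and 7 of the 9 pairs had the mutant array higher. The means were 4182 ± 1477 (SD, n = 3) and 5856 ± 1006, a ratio of 1.40 and a log2 fold change of 0.53 (SE 0.22). In wild type the SD was 35.3% of the mean, against 17.8% for AT4G33150 and 22.0% for DELTA-OAT.

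**Figure D1:**
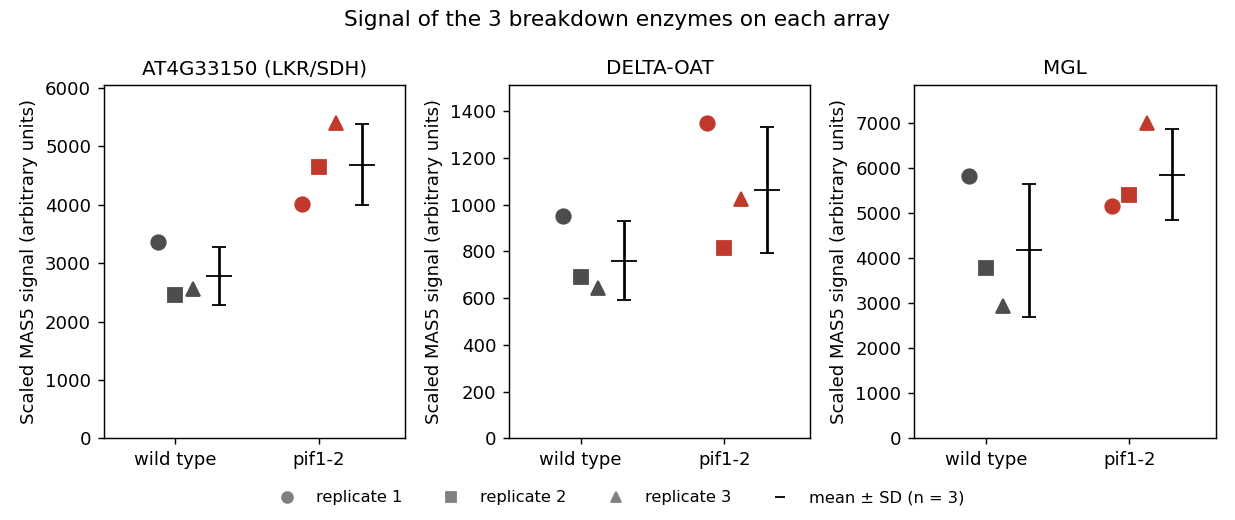
Scaled MAS5 signal (vertical axis, arbitrary units, starting at 0) of AT4G33150, DELTA-OAT and MGL on the 3 wild-type arrays (grey) and the 3 pif1-2 arrays (red). Marker shapes give the replicate number and bars the mean ± SD of 3 arrays; the groups are apart for AT4G33150, while wild type replicate 1 reaches into the pif1-2 range for DELTA-OAT and MGL.

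Of the 3 genes, 1 had groups that did not overlap, with pif1-2 higher. Over all 17695 probe sets tested, 6.49% had no overlap with pif1-2 higher and 6.58% with pif1-2 lower. With limma, 0 of the 3 were among the 2 probe sets called at an adjusted p under 0.05 (0.0113% of those tested, and 0 of them higher in pif1-2). At an unadjusted p under 0.05 there were 3 of the 3, and all 3 had a positive log2 fold change, as did 50.1% of all probe sets; 3.31% of all probe sets were higher with such a p and 4.36% lower. As the genes were chosen with these values known, nothing is read from their counts. The median log2 fold change over all probe sets tested was 0.00095. Because every array had been scaled to the same trimmed mean, this median cannot show whether a shift common to all genes was present before scaling.

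Wild type replicate 1 was the highest of the wild-type arrays for all 3 genes. Its values lay 0.28, 0.34 and 0.53 above the wild-type mean on the log2 scale for AT4G33150, DELTA-OAT and MGL. Within pif1-2 the order differed between the genes. Replicate 3 was the highest for AT4G33150 and MGL, whereas replicate 1 was the highest for DELTA-OAT and replicate 2 its lowest. Measured from their own group means, AT4G33150 and MGL deviated in the same direction on 6 of 6 arrays. For DELTA-OAT with either of the others it was 4 of 6, and deviations within a group of 3 are not independent of each other.

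The log2 fold change of AT4G33150 stayed between 0.64 and 0.89 when any 1 array was left out. That of DELTA-OAT was 0.28 without pif1-2 replicate 1 and at most 0.64, without pif1-2 replicate 2. MGL depended on the wild-type arrays: leaving out replicate 1 of wild type gave 0.79, and leaving out replicate 3 gave 0.31. Without pif1-2 replicate 3, the array that stood apart, the values were 0.64 for AT4G33150, 0.48 for DELTA-OAT and 0.39 for MGL. Without wild type replicate 1 the groups did not overlap for any of the 3 genes, and 12.9% of all probe sets then had no overlap with pif1-2 higher.

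**Figure D2:**
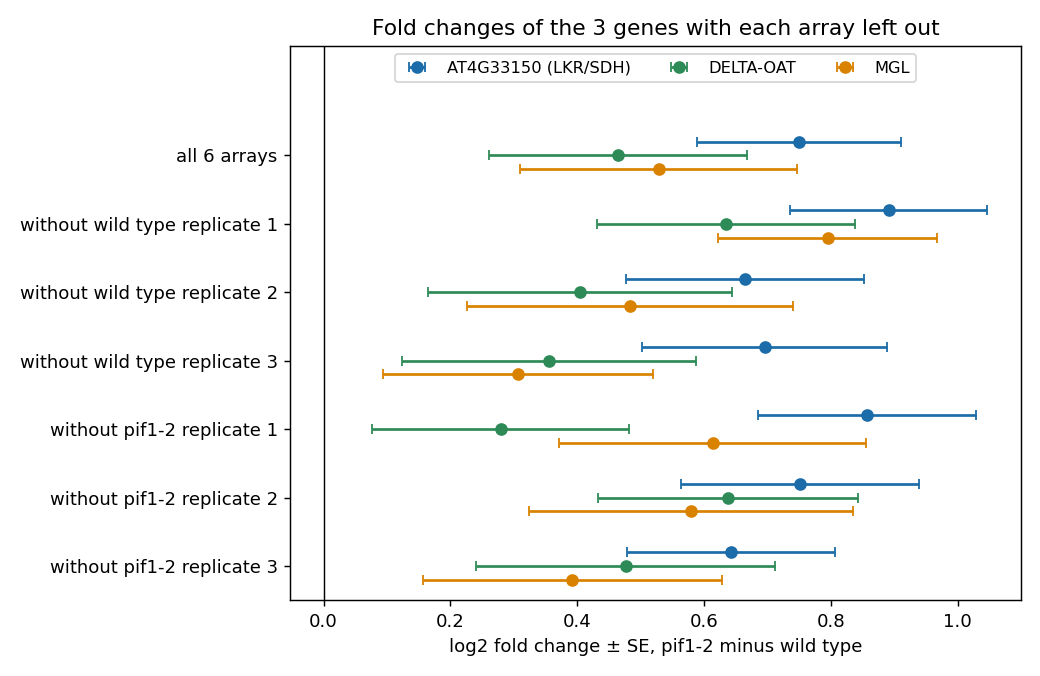
Log2 fold change (horizontal axis, pif1-2 minus wild type, on the log2(signal + 16) scale) of the 3 genes with all 6 arrays and with each array left out in turn. Points are estimates and bars 1 SE; every estimate is above 0, and the lowest are 0.28 for DELTA-OAT without pif1-2 replicate 1 and 0.31 for MGL without wild type replicate 3.

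The genes around LKR/SDH in the lysine pathway were examined next. The pathway lists were chosen with earlier results of these data known, so their counts are a description and not a test. Of 7 genes listed for lysine breakdown, 5 had a named probe set and all 5 were tested, 4 of them besides AT4G33150. With limma 0 of these 4 passed over all genes (adjusted p from 0.438 to 0.910). At an unadjusted p under 0.05, 2 were higher and 0 lower, against 3.31% and 4.36% of all probe sets. All 4 had a positive log2 fold change, with a median of 0.29, and in 3 of them the pif1-2 arrays lay wholly above the wild-type arrays, where 6.49% of all probe sets did. ALDH7B4, an aldehyde dehydrogenase that oxidises the aminoadipate semialdehyde made by LKR/SDH, had signals of 9379, 7758 and 8312 in wild type and 10643, 9929 and 12509 in pif1-2. Its log2 fold change was 0.38 (SE 0.13, limma adjusted p = 0.586).

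AT1G07040, a locus without a gene name in the annotation that was placed on the list by its locus number, had signals of 2587, 2081 and 2102 in wild type. In pif1-2 it had 3190.1, 3521 and 2925. Every mutant array was thus above every wild-type array; on the log2 scale the difference was 0.51 (SE 0.14), with a limma adjusted p of 0.438. D2HGDH, which oxidises D-2-hydroxyglutarate in mitochondria at a late step of lysine breakdown, had a wild-type signal of 491 ± 24.5 (SD, n = 3) and a pif1-2 signal of 559 ± 39.5. Its groups did not overlap either, but only narrowly, with 517 on the highest wild-type array and 521 on the lowest pif1-2 array. The log2 fold change of D2HGDH was 0.18 (SE 0.14). AT5G52810, also listed by locus alone, was dim, at 150.0 ± 38.3 and 176 ± 52.3, and its groups overlapped (0.20, SE 0.26, from -0.013 when wild type replicate 1 was left out to 0.43 when pif1-2 replicate 1 was, and -0.0026 with array weights). On the synthesis side of lysine 1 of the 13 listed genes was tested, AT3G53580, with a log2 fold change of -0.072 (SE 0.18), which was 0.10 without pif1-2 replicate 2 and -0.18 without pif1-2 replicate 3.

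D2HGDH passes its electrons to the electron-transfer flavoprotein and its oxidoreductase, which also take them from isovaleryl-CoA dehydrogenase (IVD) in leucine breakdown. The list of branched-chain amino acid breakdown and electron transfer had 9 of 16 genes tested, and 0 passed with limma over all genes (adjusted p from 0.312 to 0.974). All 9 had a positive log2 fold change, with a median of 0.31, 4 of them were higher (0 lower) by an unadjusted p under 0.05, against 3.31% (4.36%) of all probe sets. Another count, of genes without overlap and with pif1-2 higher, was also 4, against 6.49%. As this list too was chosen with earlier results known, these counts are no test of it. Of the 9, AT2G26800 (0.041) ran from -0.072 to 0.20 with 1 array left out and was negative in 3 of these 6 fits. AT5G09300 (0.22) ran from -0.034, when pif1-2 replicate 1 was left out, to 0.52, when pif1-2 replicate 3 was. The median was 0.47 without wild type replicate 1, and the count without overlap was then 7, against 12.9% of all probe sets. Both subunits of methylcrotonyl-CoA carboxylase, an enzyme of leucine breakdown, were among those without overlap. MCCA was measured at 6602 ± 864 and 9850.1 ± 1072 (0.58, SE 0.14, limma adjusted p = 0.312). MCCB was at 3558 ± 1414 and 6099 ± 774 (0.84, SE 0.22, limma adjusted p = 0.417). MCCB passed without wild type replicate 1 (adjusted p = 0.0264) and in the fit blocked by replicate number (0.0394), and missed the threshold in the other settings (0.149 to 0.999).

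The electron carriers themselves had smaller differences: ETFQO was at 0.31 (SE 0.16, from 0.20 without wild type replicate 3 to 0.47 without wild type replicate 1), ETFALPHA at 0.25 (SE 0.17, 0.12 without pif1-2 replicate 3) and ETFBETA at 0.24 (SE 0.14). IVD had signals of 5170.3, 3508 and 3633 in wild type and 5544, 4923 and 6149.8 in pif1-2. As for MGL and DELTA-OAT, its overlap came from wild type replicate 1. Over the 19 breakdown genes tested besides LKR/SDH, DELTA-OAT and MGL, that array was the highest wild-type array for 11, and it was for 34% of all probe sets. It was also the highest wild-type array for ICL, at 12603 against 8147 and 6683. What sets it apart was not tested.

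**Figure D3:**
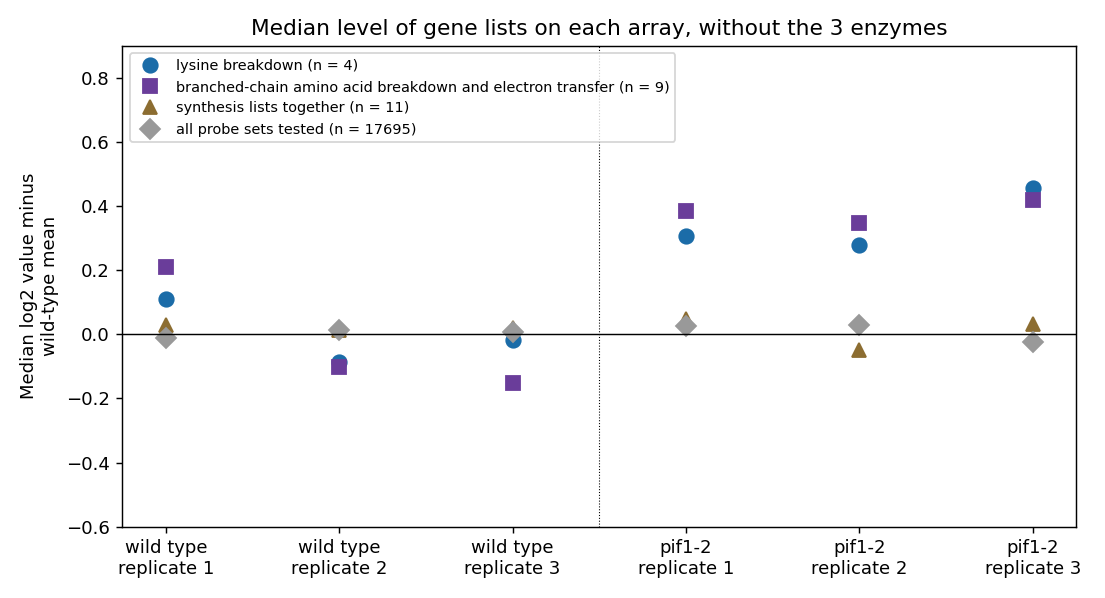
Median log2 level (vertical axis, relative to each gene's wild-type mean) on each of the 6 arrays. Drawn are the lysine breakdown list (4 genes), the branched-chain breakdown and electron transfer list (9), the synthesis lists together (11) and all 17695 probe sets. The lists leave out AT4G33150, DELTA-OAT and MGL, whereas the 17695 probe sets include them. On the pif1-2 arrays the lysine and branched-chain breakdown lists were at 0.28 to 0.46. In wild type they were highest on replicate 1 (0.11 and 0.21). The median of the synthesis lists together stayed between -0.048 and 0.047, but the separate lists, not drawn, varied more. Lysine synthesis (1 gene) ran from -0.42 on pif1-2 replicate 2 to 0.15 on pif1-2 replicate 3. Ornithine, arginine and proline synthesis (5) ran from -0.21 on pif1-2 replicate 1 to 0.034 on pif1-2 replicate 3. The methionine synthesis list (5) ran from -0.018 on pif1-2 replicate 2 to 0.064 on wild type replicate 2. Also not drawn are the lists of ornithine, arginine and proline breakdown (3 genes) and of other amino acid breakdown (3). On replicates 1 to 3 the ornithine breakdown list was at -0.20, 0.28 and 0.13 in wild type and -0.18, 0.28 and 0.080 in pif1-2. The list of other amino acid breakdown was at 0.050, 0.084 and -0.14 in wild type and -0.021, 0.10 and 0.24 in pif1-2.

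Besides DELTA-OAT, few genes of its pathway could be examined. Of 14 genes listed for ornithine, arginine and proline breakdown 4 were tested, 3 besides DELTA-OAT, and 0 of the 3 passed with limma, with 2 positive and 1 negative and 0 at an unadjusted p under 0.05 in either direction. AT5G38710, placed on the list by its locus number, had signals of 322, 929 and 895 in wild type and 475, 906 and 1211 in pif1-2. Its log2 fold change of 0.31 (SE 0.39) ran from -0.17 when wild type replicate 1 was left out to 0.68 when pif1-2 replicate 1 was, and was -0.069 with array weights. URE, the urease that releases ammonia from the urea made by arginase, stood at 120.3 ± 24.7 (SD, n = 3) and 80.6 ± 22.3 (-0.51, SE 0.29, limma adjusted p = 0.725, and -0.34 without pif1-2 replicate 2). MBAC1, a mitochondrial carrier of basic amino acids, was at 0.075 (SE 0.17). It was -0.028 when pif1-2 replicate 2 was left out and 0.18 when pif1-2 replicate 1 was. The loci listed for arginase and glutamate dehydrogenase had no probe set with a single gene name and were not analysed here.

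On the synthesis side of ornithine, arginine and proline 5 of 15 listed genes were tested, and 0 passed or had an unadjusted p under 0.05 with limma. Their median log2 fold change was -0.24, and -0.13 without wild type replicate 3. AT5G10920 was at -0.40 (SE 0.19, -0.59 without pif1-2 replicate 2 and -0.25 without pif1-2 replicate 3) and AT4G24830 at -0.36 (SE 0.27). The latter was -0.71 when pif1-2 replicate 3 was left out and -0.17 when replicate 2 of that group was. OTC, the ornithine carbamoyltransferase that draws ornithine towards arginine, stood at 372 ± 10.2 and 386 ± 29.7 (0.049, SE 0.15, and -0.0073 without pif1-2 replicate 1). The signal of OTC therefore differed by less than the SD among the pif1-2 arrays, but by more than that among the wild-type arrays.

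MGL was the only gene tested of the 4 listed for methionine and threonine breakdown. Of the 26 genes listed for methionine synthesis and the cycle of S-adenosylmethionine, 5 were tested, and 0 passed or had an unadjusted p under 0.05 with limma (adjusted p from 0.771 to 0.981). Their median was -0.027 and turned positive without wild type replicate 1 (0.082), wild type replicate 2 (0.046), pif1-2 replicate 1 (0.00066) or pif1-2 replicate 2 (0.060), and with array weights (0.080). MMT, which methylates methionine, stood at 722 ± 143 (SD, n = 3) and 853 ± 47.3 (0.25, SE 0.17, and 0.082 without wild type replicate 1). HMT-1, a homocysteine methyltransferase that uses the product of MMT to make methionine, was at 0.15 (SE 0.15, 0.041 without pif1-2 replicate 3). CBL, the cystathionine beta-lyase of methionine synthesis, was at -0.10 (SE 0.14, and 0.00066 without pif1-2 replicate 1), and ARD4, a dioxygenase that recycles the sulphur of methionine, at -0.027 (SE 0.16), from -0.15 when wild type replicate 2 was left out to 0.085 when wild type replicate 1 was, and 0.080 with array weights. None of these 5 genes had groups without overlap, which 13.1% of all probe sets had in either direction, so nothing is read from this count.

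**Figure D4:**
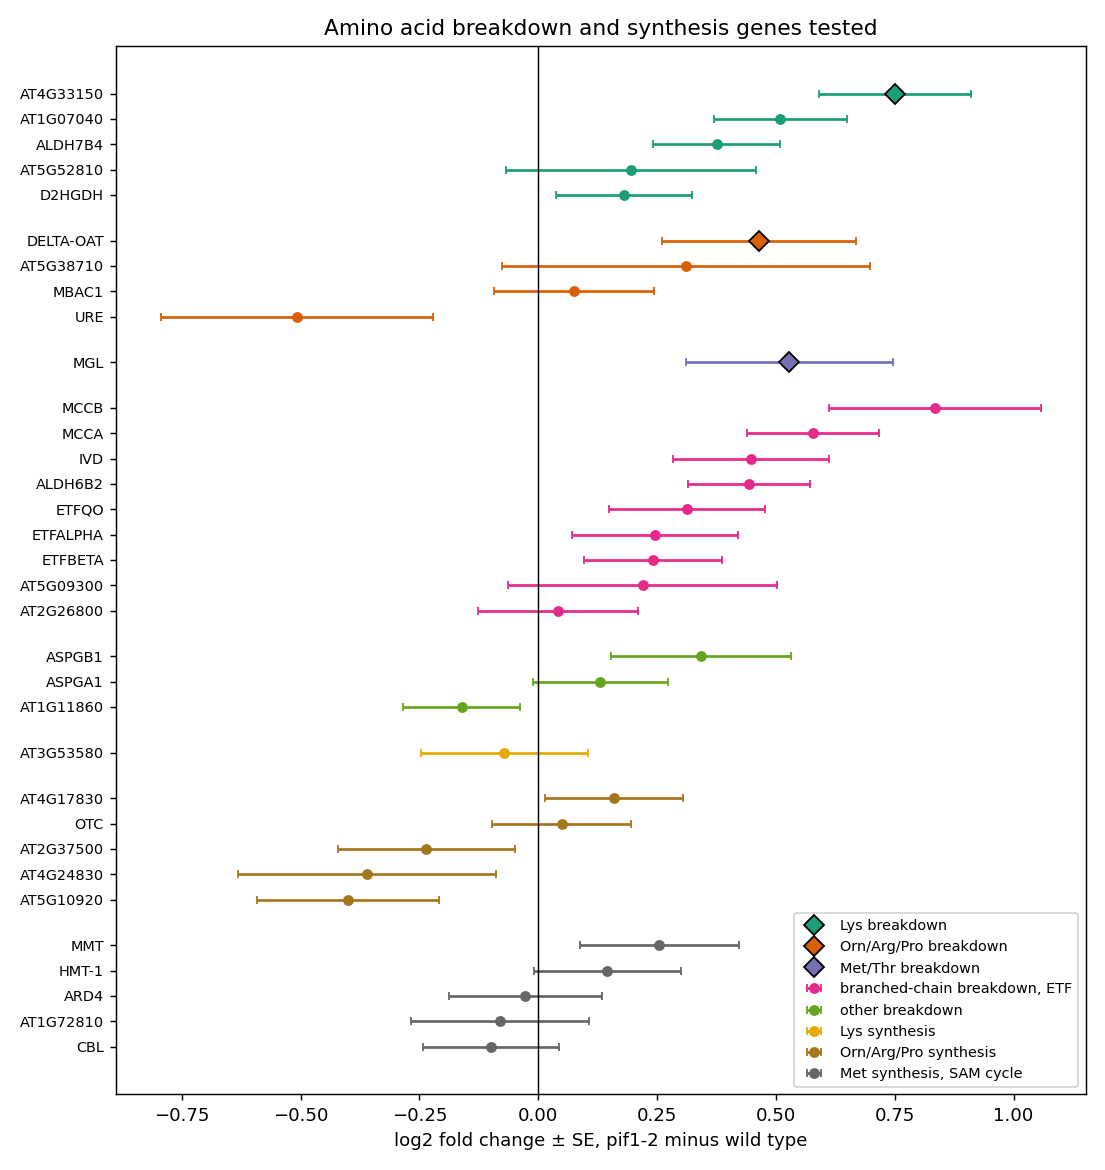
Log2 fold change (horizontal axis, pif1-2 minus wild type, bars 1 SE) of the tested genes of amino acid breakdown and synthesis, coloured by list, with AT4G33150, DELTA-OAT and MGL as diamonds. All lysine and branched-chain breakdown genes lie above 0, from 0.041 to 0.84. The ornithine, arginine and proline breakdown genes lie on both sides, from -0.51 (URE) to 0.46 (DELTA-OAT). So do those of other amino acid breakdown, from -0.16 (AT1G11860) to 0.34 (ASPGB1), and the synthesis genes, from -0.40 to 0.25.

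Likeness of pattern was measured as the root-mean-square difference between the centred log2 values of 2 genes over the 6 arrays, which all genes share, so it includes whatever sets the arrays apart. Among the 9980 other probe sets with 1 gene, those closest to AT4G33150 were AT4G28703 (0.088), AT2G41190 (0.097) and HPR (0.10), the hydroxypyruvate reductase of photorespiration. HPR had a wild-type signal of 1968 ± 264 (SD, n = 3) and a pif1-2 signal of 3048 ± 288. Closest to DELTA-OAT were AT3G13062 (0.048), AT5G63010 (0.075) and AT4G23880 (0.082), and closest to MGL were AT3G59480 (0.083), AT5G18600 (0.12) and AT2G38820 (0.12). The 3 breakdown genes were not each other's nearest. AT4G33150 and MGL differed by 0.21, which ranked MGL 71 for AT4G33150 and AT4G33150 56 for MGL. DELTA-OAT differed by 0.33 from AT4G33150 and by 0.30 from MGL, at ranks from 448 to 1806.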

How the data were processed

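The deposited values are intensities on a linear scale, 1 for each probe set of 6 Affymetrix ATH1 arrays, made by the authors with MAS5, per the submitters' processing notes; which version was used is not given in the sources. Labelled RNA was made from 20 µg of total RNA, per the labels' protocols. MAS5 summarises each array on its own, and its dim signals are noisy. Leaving aside 64 controls, arrays were brought to a 2% trimmed mean of 500. Probe sets with a mean under 50 (5051) were dropped, and the remaining 17695 were put on a log2(signal + 16) scale, which understates changes of dim probe sets. The groups, taken from the sample titles, were compared by the moderated linear model of limma 3.58.1 (R 4.3.3; eBayes, trend on intensity), two-sided; p-values were adjusted by Benjamini-Hochberg across the whole table, with a threshold of 0.05.

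Genes were named from the platform annotation, which gave 1 gene for 13513 probe sets, several for 503 and none for 8730; 13436 matched the RefSeq table of TAIR10.1, used for names only. No coordinates or sequences are printed. Of 128 genes on the 9 pathway lists, 35 had a named probe set, the brightest being used. The genes and lists were chosen with earlier results of these data known. The naming rule took the 3 enzymes, from each list the genes past the threshold filled up to 2 by smallest p, and the 3 genes of closest pattern to each enzyme; further list genes were named after their values were seen. Alternatives covered the pseudocount, a floor, scaling, filter, variance model, array weights, a block by replicate number and leaving out each array. The planned promoter and protein description was not made. The labels call the replicates biological without saying that seedlings were grown separately, so the p-values reflect only how far these samples spread, which may be technical, and the number of arrays limits the precision.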

Additional observations from a re-analysis of the deposited data

How the results depend on the processing

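The log2 fold changes of the 3 enzymes kept their sign in all 16 alternatives. The filters, the intensity trend and the replicate block cannot change these estimates. With 3 arrays in a group, leaving 1 out cannot move them by more than the SD within groups, so staying within it was no test. Leaving out 1 array gave 0.64 to 0.89 for AT4G33150, 0.28 to 0.64 for DELTA-OAT and 0.31 to 0.79 for MGL. The other 10 settings gave 0.74 to 0.77, 0.44 to 0.58 and 0.52 to 0.55. The number of probe sets called, 2 in the fit reported, was 1 with median centring, 1 with quantile normalization, 1 with no filter, 1 without the intensity trend, 8 with array weights, 45 with the replicate block, and 0 to 7 without 1 array (7 when wild type replicate 1 was left out and 0 when replicate 2 of that group was); 0 of the 3 enzymes were among them in any setting. Among the 32 other pathway genes tested 0 were called in the fit reported and 6 had an unadjusted p under 0.05 with limma. All 6 were higher in pif1-2, 2 on the lysine and 4 on the branched-chain breakdown list. Of all probe sets, 3.31% were higher with such a p and 4.36% lower. The count of calls was 1 with the replicate block and 0 to 1 without 1 array, each time MCCB. The cause of these moves was not tested. The replicate numbers are not taken as pairs, because the labels do not say that a number marks a shared batch. Deviations of same-numbered arrays from their group means correlated, across probe sets, at 0.251, 0.0988 and 0.088, all positive. With the replicate block the SE was 0.15 for AT4G33150, 0.14 for DELTA-OAT and 0.19 for MGL. Whether same-numbered arrays share a batch was not tested. Most listed genes were not measured by a probe set with a single gene name, which limits what the lists show. The counts of genes without overlap were repeated without each array after the data had been seen; for lysine breakdown they were 3 or 4 of 4 and for branched-chain breakdown 4 to 7 of 9, while the share of all probe sets went from 6.49% to between 10.4% and 13.2%.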

Other observations

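Other genes of amino acid breakdown and of the response to darkness were few on the named probe sets, and 0 of the 5 tested passed with limma or had an unadjusted p under 0.05. The asparaginases ASPGB1 and ASPGA1, which release ammonia from asparagine, had log2 fold changes of 0.34 (SE 0.19, 0.15 without pif1-2 replicate 3) and 0.13 (SE 0.14, 0.062 to 0.21 when wild type replicate 3 or pif1-2 replicate 1 was left out). ASPGB1 had signals of 376, 367 and 299 in wild type and 400.4, 372 and 581 in pif1-2, so its highest value was on the array that stood apart. AT1G11860 ran the other way, with a wild-type signal of 2919 ± 111 (SD, n = 3) and a pif1-2 signal of 2609.9 ± 121 (-0.16, SE 0.12), and every pif1-2 array lay below every wild-type array, as for 6.58% of all probe sets.

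Of the 10 genes listed for darkness and sugar starvation 2 were tested. AT3G15450 had 19838, 20381 and 20062 in wild type and 21610.4, 24141 and 23756 in pif1-2, without overlap, as for 6.49% of all probe sets (0.20, SE 0.11, but 0.064 with quantile normalization). BZIP53, a bZIP transcription factor known to act on amino acid breakdown genes, stood at 2845 ± 270.2 and 2686 ± 195 (-0.081, SE 0.13, -0.15 and -0.016 when wild type replicate 1 or 3 was left out).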
